A study of Rattus norvegicus with 10 samples.

Results

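The NMDA receptor subunit genes were taken by their gene symbols from the deposited expression table of Wistar rat dams. The tissue was dissected by the authors as the arcuate nucleus (ARC). Of the 7 genes sought (*Grin1*, *Grin2a*, *Grin2b*, *Grin2c*, *Grin2d*, *Grin3a* and *Grin3b*), 6 had a row among the 12828 genes of the table, each with a single row. *Grin3b* had no row and was not analysed here. The series holds poly-A RNA-seq of 10 mother rats killed upon parturition, 5 fed a 5X-FA diet (folic acid) and 5 fed a 5X-MTHF diet (methylfolate) during pregnancy. All dams therefore carried a high folate intake, and the ARC was cut freehand from frozen slices.

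The values given here are from the authors' logCPM column, which was read as an average over all libraries of the table. The per-sample columns of the table are named by running numbers that match no dam, and they were not used. The columns with the authors' own comparison of the diets were not used either. No difference between 5X-FA and 5X-MTHF dams is therefore given for any gene, and neither a spread between libraries nor a depth per library was computed for the values that follow. Each value is an average log2 CPM, that is, the base 2 logarithm of the reads a gene received out of every 1000000 reads (counts per 1000000, CPM). CPM is not corrected for transcript length, so a longer mRNA draws more reads at the same number of molecules. The order of the subunits below is an order of reads, not of molecules.

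NMDA receptors are glutamate-gated cation channels of excitatory synapses. They open when glutamate and a co-agonist, glycine or D-serine, are bound while the membrane is already depolarised, and the calcium that enters drives synaptic plasticity. Every receptor holds the GluN1 subunit, encoded by *Grin1*, together with GluN2 or GluN3 subunits, which set its kinetics, its magnesium block and its calcium permeability. In the ARC, glutamatergic input through these receptors is known to excite the hunger-promoting AgRP neurons.

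*Grin1*, the obligatory subunit that binds the co-agonist, drew by far the most reads of the family. Its average log2 CPM was 8.54, equal to 373 CPM. This placed it at rank 330 from the top and at percentile 97.4 of all genes in the table, whose median log2 CPM was 4.94. It gave 63.7% of the reads summed over the 6 subunits (586 CPM).

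The GluN2 subunits bind glutamate, and all 4 of their genes lay above the median of the table. *Grin2c*, which is best known from cerebellar granule cells and astrocytes, came highest among them, with an average log2 CPM of 5.85 (57.6 CPM, percentile 68.5). *Grin2d*, whose subunit gives slowly closing channels and is known from the diencephalon, brainstem and interneurons, had 5.39 (42.0 CPM, percentile 59.4). *Grin2b*, the GluN2 gene that prevails in the forebrain early in life, had 5.38 (41.7 CPM, percentile 59.2). These log2 levels of *Grin2d* and *Grin2b* differed by 0.01, and 29 genes of the table lay between them.

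*Grin2a*, whose expression is known to rise after birth in the forebrain, had the fewest reads of the 6, with an average log2 CPM of 5.07 (33.5 CPM, percentile 52.5). The 4 GluN2 genes thus spanned 0.78 log2 units of read level. Summed, they gave 175 CPM, and the reads of *Grin1* were 2.13 times that sum.

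*Grin3a* encodes a GluN3 subunit, which binds glycine in place of glutamate and lowers calcium permeability. Its average log2 CPM was 5.25 (38.0 CPM, percentile 56.3). It lay between *Grin2b* and *Grin2a* in the order of read levels, 0.13 below the former and 0.18 above the latter.

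Only the step from *Grin1* to *Grin2c*, 2.69 log2 units, was large. The steps between neighbours from *Grin2c* down to *Grin2a* were 0.46, 0.01, 0.13 and 0.18. As the per-sample columns were not used, neighbours in this order were not tested against a spread between libraries.

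**Figure D1:**
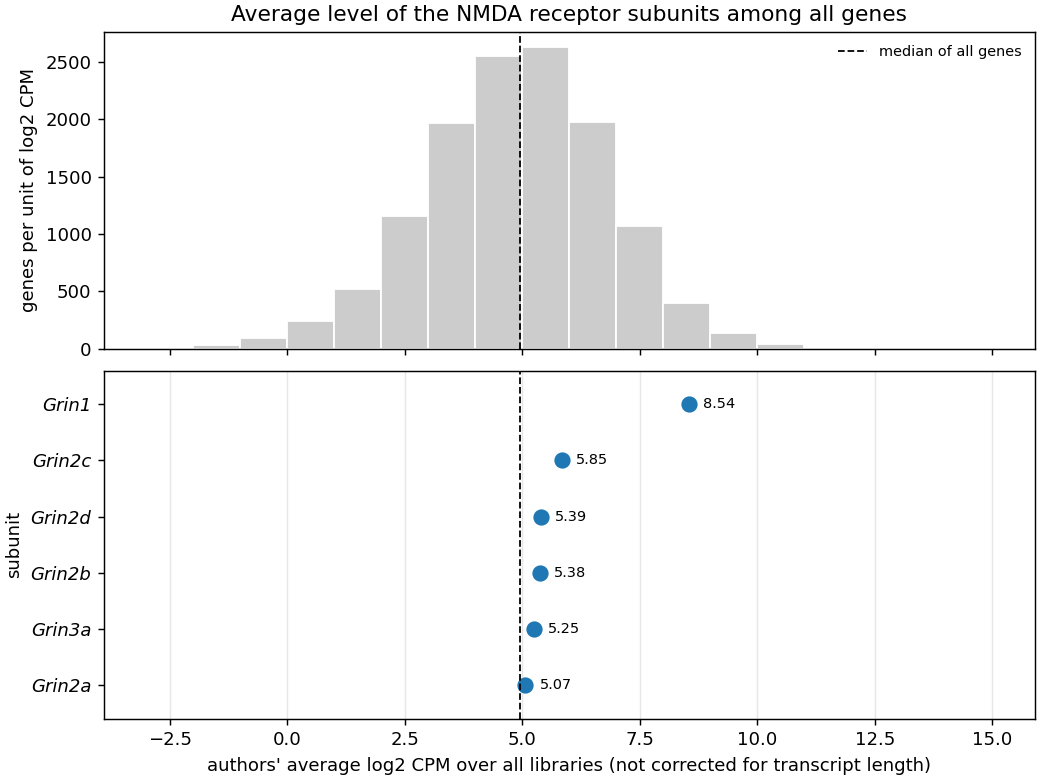
The upper panel is a histogram of the authors' average log2 CPM (x axis) over all 12828 genes, with the number of genes per log2 unit on the y axis, and the lower panel gives each subunit's value as a point on the same x axis. The dashed line marks the median of all genes, 4.94; *Grin1* lies at 8.54, apart from the other 5 subunits, which lie between 5.07 and 5.85.

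The 6 genes are all annotated as protein-coding and lie on 5 chromosomes of Rnor_6.0. *Grin1* (ENSRNOG00000011726) lies on chromosome 3 from 2506896 to 2534663 and spans 27.8 kb. *Grin2c* (ENSRNOG00000003280) and *Grin2a* (ENSRNOG00000033942) share chromosome 10, the former from 103798291 to 103816287 and the latter from 5930298 to 6119990. *Grin2d* (ENSRNOG00000021063) lies on chromosome 1 from 101820461 to 101856881, *Grin2b* (ENSRNOG00000008766) on chromosome 4 from 169560387 to 169999873, and *Grin3a* (ENSRNOG00000005723) on chromosome 5 from 64928620 to 65073012. The loci differed greatly in extent, from 18.0 kb for *Grin2c* to 439 kb for *Grin2b*. *Grin2b* and *Grin2d*, whose read levels were nearly equal, span 439 kb and 36.4 kb. These are spans on the genome and not lengths of the mRNA, which were not computed.

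The sequence just before the start of the gene was at hand from RefSeq (build GRCr8) for 4 of the 6 subunits, *Grin1*, *Grin2c*, *Grin2d* and *Grin3a*. CpG, the dinucleotide at which mammalian DNA is methylated, was counted in the 250 bases upstream of each start. *Grin1* had 19 CpGs and *Grin3a* had 16, at percentiles 83.3 and 78.1 of 33465 upstream stretches of the same length, whose median was 5. *Grin2d* had 9 and *Grin2c* had 8, at percentiles 64.1 and 61.5. The hexamer GGGCGG, the core of the GC box, was searched on both strands and was found in 0 of the 4 stretches and in 30.5% of all stretches. The ends of this order, *Grin1* and *Grin2c*, are printed 5′ to 3′ on the minus strand to show how the CpGs, in capitals, are placed. The stretch of *Grin1* is chr3:28528755-28529004 and that of *Grin2c* is chr10:101005139-101005388.
Grin1: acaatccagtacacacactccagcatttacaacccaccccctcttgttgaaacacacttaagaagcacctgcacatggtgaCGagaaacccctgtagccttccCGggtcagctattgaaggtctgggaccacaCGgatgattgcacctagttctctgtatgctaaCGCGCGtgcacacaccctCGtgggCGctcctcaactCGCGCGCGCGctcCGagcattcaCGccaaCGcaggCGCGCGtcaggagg
Grin2c: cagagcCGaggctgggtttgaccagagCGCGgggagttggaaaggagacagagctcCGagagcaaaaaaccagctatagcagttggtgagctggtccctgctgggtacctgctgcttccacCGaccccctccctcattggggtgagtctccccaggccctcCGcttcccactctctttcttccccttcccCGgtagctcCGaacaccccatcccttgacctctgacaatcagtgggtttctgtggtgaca
The 100 bases nearest the start held 16 of the 19 CpGs of *Grin1* and 3 of the 8 of *Grin2c*. The table holds no methylation, and no relation between CpG number and read level was tested.

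The other ionotropic glutamate receptors were all found, 11 of 11, with a median average log2 CPM of 6.53, against 5.39 for the 6 NMDA receptor subunits and 4.94 for all genes. *Gria2*, the AMPA receptor subunit that blocks calcium entry, had the highest value (9.40), followed by *Gria1* with 7.50 and *Gria4* with 7.44. *Grik1*, a kainate receptor subunit, had the lowest, 4.75. Summed reads were 1200 CPM for the 4 AMPA receptor genes, 586 CPM for the 6 NMDA receptor genes and 329 CPM for the 5 kainate receptor genes, without correction for length.

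Scaffold proteins of the postsynaptic density hold the receptor in place, and 14 of the 15 genes listed had a row; *Shank2* had none. Their median average log2 CPM was 7.07. *Dlg4*, which encodes PSD-95 and binds the tails of GluN2 subunits, had 8.87, *Shank1* had 8.51 and *Dlg1* had 7.40. *Homer2* had the lowest value, 3.41.

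Of 18 genes for calcium and kinase signaling at the receptor, 17 had a row, and all 17 lay above the median of the table. *Calm3*, which encodes a calcium sensor, had an average log2 CPM of 9.30, and *Rasgrf1*, a calcium-dependent activator of Ras, had 9.25. The median of the list was 7.28.

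Genes for the supply of the co-agonist were less completely covered. Of 11 such genes 8 had a row, while *Dao*, *Slc6a5* and *Shmt1* had none. *Slc6a9*, the glial glycine transporter, had an average log2 CPM of 7.57, and *Psat1* and *Phgdh*, enzymes of serine synthesis, had 7.55 and 6.41. *Srr*, which makes D-serine, had 5.29.

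All 21 trafficking and surface partners had a row, with a median average log2 CPM of 5.56. *Nsf*, an ATPase of membrane fusion, had the highest value, 9.76, and *Snx27*, an endosomal sorting protein, had 7.88. *Kif17*, the kinesin that carries GluN2B along dendrites, had 3.80.

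**Figure D2:**
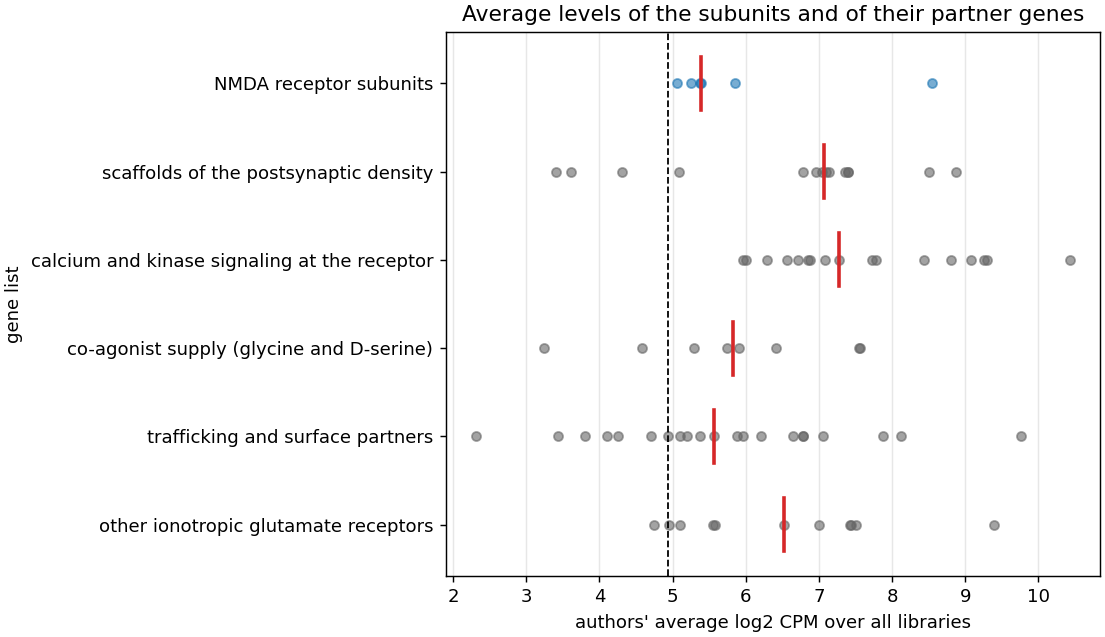
Each point is a gene at the authors' average log2 CPM (x axis), in rows by gene list, with the 6 NMDA receptor subunits in blue and the partner lists in grey. Red bars mark the median of each list and the dashed line the median of all genes, 4.94; the medians run from 5.39 for the NMDA receptor subunits to 7.28 for calcium and kinase signaling.

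Markers of brain regions and cell types were read from the same averages, since the reads of the subunits in a tissue piece come from all of its cells. Of 13 ARC markers, 11 had a row, with average log2 CPM values from 0.08 (*Kiss1*) to 6.02 (*Cartpt*), while *Npy* and *Nr5a2* had none. Over genes with a row, their median was 4.0, the lowest of the 10 marker lists, just below cerebral cortex and hippocampus with 4.05. Genes without a row, whose number differs between lists, enter no median, so this order depends on them too. Of the 11 ARC markers, 2 lay above the median of all genes. *Pomc* and *Agrp*, which define the satiety and hunger neurons of the ARC, had 4.67 and 1.42. Markers of striatum (11 of 11 with a row), of cerebral cortex and hippocampus (8 of 10) and of thalamus (8 of 8) had medians of 5.37, 4.05 and 4.36, and their highest values were 7.07, 8.44 and 8.09. The genes behind these highest values were *Ppp1r1b*, *Camk2a* and *Slc17a6*. *Slc17a6*, a vesicular glutamate transporter, is used by hypothalamic neurons too, and *Camk2a* was also in the list for calcium and kinase signaling. Whether any of these genes marks only its region was not tested. Medians were 8.80 for general neuronal markers (7 of 7), 8.96 for astrocytes (7 of 7) and 9.18 for oligodendrocytes (7 of 7). They were 4.32 for microglia (6 of 6), 4.85 for endothelium (5 of 6) and 4.31 for ependyma and tanycytes (4 of 7). The general neuronal markers ranged widely around their median, from 2.44 (*Eno2*) to 10.44 (*Snap25*). *Grin2c* is known from astrocytes and the other GluN2 genes mainly from neurons, and the shares of these cells, or of tissue outside the ARC, in the reads of the subunits were not tested.

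**Figure D3:**
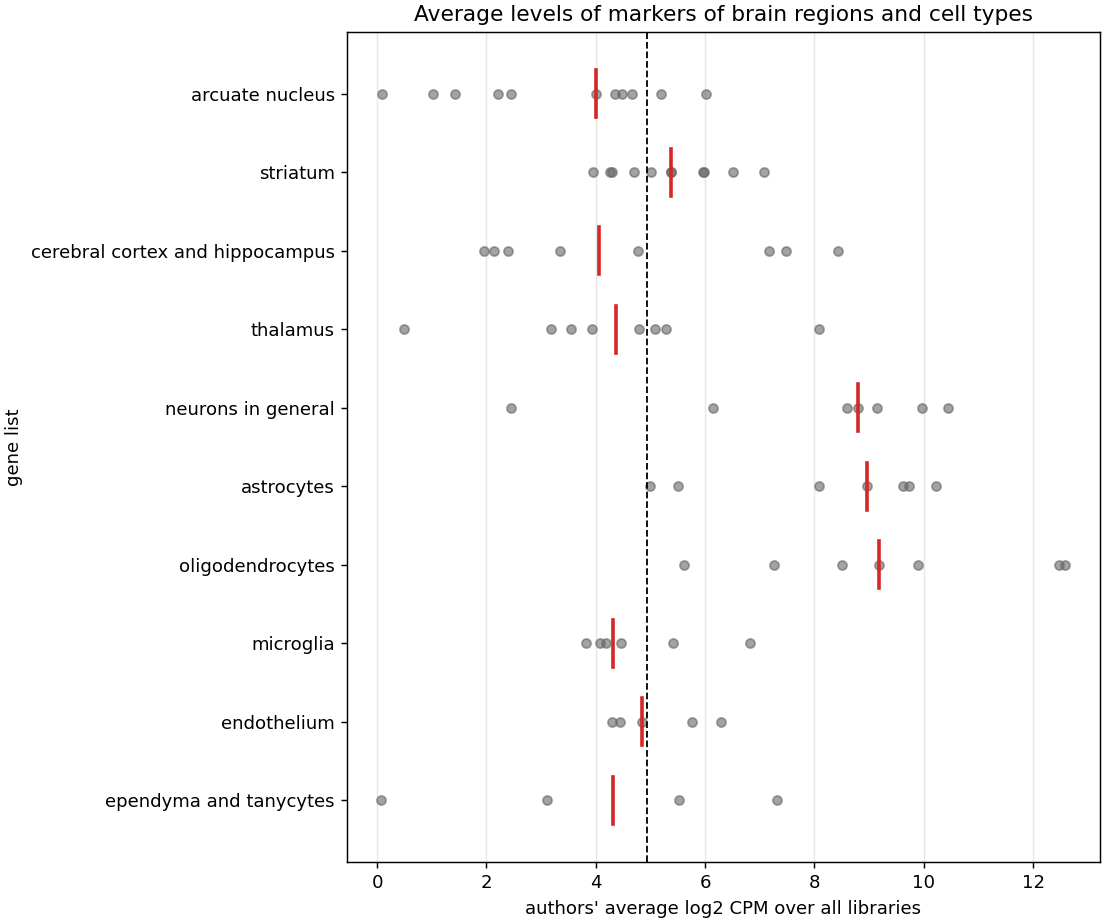
Each point is a marker gene at the authors' average log2 CPM (x axis), in rows by brain region or cell type. Red bars mark list medians, which are above 8 for neurons, astrocytes and oligodendrocytes and reach 9.18 in the last, and the dashed line marks the median of all genes, 4.94.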

How the data were processed

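Per the study's methods and the submitters' processing notes, reads were trimmed with Trim Galore 0.5.0, aligned with STAR 2.6.0c to Rnor_6.0 with Ensembl gene models and assigned to genes with HTSeq 0.6.1p2, and genes with few reads were dropped. The authors deposited 1 table for the series. From it, the column headed logCPM was used, a value on a log2 scale. Its header names no sample, and it was read as the authors' average log2 CPM over all libraries. Raising 2 to this value gave CPM, which summed to 1002152 over all rows.

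The authors' log2 fold change, F statistic, *p*-value and FDR columns hold their own comparison of the diets and were not used. The paper names DESeq2 for its comparison, and whether these columns hold that same fit was not established. The names of another 10 columns, with values per sample, match no dam in the labels. These columns stayed unassigned and unused, so that the planned tests of diet, exact tests and fits without 1 dam were not run. The plan was also to compare levels of different genes only per transcript length. Such levels were not computed, and genes are compared here by reads, which departs from the plan. Groups were taken from the sample titles, and depth per library was not computed.

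Percentiles give the share of rows at or below a gene. As alternatives, genes were ranked against protein-coding rows only, or against rows whose average was 1 or more, or 4 or more. A percentile counted as moved where it left the exact 95% binomial interval of its value over all rows. The rows are the whole table and no random sample, so this interval served only as a yardstick. It measures no uncertainty of a percentile. All 6 subunits are named, and from each of 5 function lists the 3 genes with the highest average; the 10 marker lists are given by medians or ranges. Some genes that this rule selects are not reported here. *Homer2*, *Grik1*, *Srr*, *Kif17*, the genes named from the marker lists, genes without a row and *Grina* were named after the values were seen. The members and lists were chosen with earlier results of these data known. The table holds 22 repeated symbols, none of them a subunit. Upstream sequences are from RefSeq (GRCr8). The percentile calculation and the CpG count were tested on simulated data, and the other calculations were not. All used Python 3.11.15 (pandas 2.3.3, numpy 2.4.6, scipy 1.17.1, figures with matplotlib 3.10.9).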

Additional observations from a re-analysis of the deposited data

How the results depend on the processing

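Percentiles of the subunits depended on the genes they were ranked against. Of 18 alternative percentiles, 2 stayed within the exact 95% binomial interval of the percentile over all rows, both of *Grin1*, and 16 moved out of it, all downward. Against protein-coding rows only, the percentile was 67.7 for *Grin2c*, 58.3 for *Grin2d*, 58.1 for *Grin2b*, 55.1 for *Grin3a* and 51.2 for *Grin2a*. Against rows whose average (log2 CPM) was 1 or more, it was 67.6 for *Grin2c*, 58.2 for *Grin2d*, 58.0 for *Grin2b*, 55.0 for *Grin3a* and 51.1 for *Grin2a*. Against rows whose average was 4 or more, it was 96.3 for *Grin1*, 54.3 for *Grin2c*, 41.1 for *Grin2d*, 40.7 for *Grin2b*, 36.4 for *Grin3a* and 31.0 for *Grin2a*. The downward move with a minimum follows from its construction, since genes with fewer reads are left out.

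No paired analysis was possible because the per-sample columns carry no replicate number of the labels. The paper allocated dams to the diets at random and describes no pairs. A replicate number shared by the diet groups is therefore no evidence of a pair. Other pseudocounts, filters and scalings and fits without 1 dam were not run, since columns that match no sample label were used in no step. Levels per transcript length were not computed. The depth behind each value and the spread between libraries were not computed.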

Other observations

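*Grina* shares the start of its symbol with the subunits but encodes a membrane protein of another family and is no part of the receptor. Its average log2 CPM was 8.41 (341 CPM, percentile 97.1), close to that of *Grin1* in reads, so that matching by the start of the symbol would add a gene with nearly as many reads as *Grin1* to the family.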
